A study of Mus musculus with 6 samples.

Results

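The 41 genes described here code for proteins that carry a cell into and through mitosis: the cyclins and kinases of mitotic entry, the kinetochore and spindle checkpoint, spindle motors, the cytokinesis machinery and the proteins that trigger sister chromatid separation. They were listed by gene symbol, with earlier results of these data known, and all 41 were found among the 51912 genes listed in each count file. The libraries came from the aorta-gonad-mesonephros (AGM), the embryonic region around the dorsal aorta where blood stem cells first form, of MacGreen (Csf1r-EGFP) mouse embryos at E10.5. MacGreen mice carry a green fluorescent protein under the promoter of Csf1r, the receptor for macrophage colony-stimulating factor, which is also active in precursors of macrophages, so that GFP alone does not define a mature macrophage. GFP+ cells were sorted by staining for CD206, the mannose receptor encoded by Mrc1, into GFP+CD206- and GFP+CD206+ populations. No other treatment or mutation was named. Each population was collected from 3 separate litters, giving 3 libraries a group, and each library pooled 3 to 5 AGM, which had been dissociated with collagenase.

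As background, mitosis is driven by cyclin B and cyclin A bound to the kinase Cdk1, with Polo-like and Aurora kinases building the spindle. The kinetochore ties chromosomes to microtubules, the spindle checkpoint holds the cell until all are attached, and the anaphase-promoting complex then destroys cyclin B and securin so that separase can cut cohesin. Transcripts of this machinery are made mainly in G2 and M phase and are low in resting cells, which makes them a common readout of proliferation. Macrophages of the early embryo come from yolk sac and later precursors and, unlike most adult blood monocytes, divide within the tissue.

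Between 16730846 and 18214283 reads fell in genes in each library, and 16007 to 17745 genes had at least 1 read. Levels are given as CPM (reads scaled to a common library total) after TMM scaling, a scaling that assumes that most genes do not differ, and 3 reads stood for 0.165 to 0.179 CPM. Mrc1 was measured at 51.6, 118.5 and 112 CPM in the CD206- libraries and 1458, 1792 and 1506 CPM in the CD206+ libraries, so that every library matched its sort. Macrophage markers were present in both groups: their summed level was 5128, 5962 and 6023 CPM in CD206- and 7220, 9195 and 10049 CPM in CD206+ cells, and 5 of 11 were called higher in CD206+ cells. Markers of blood progenitors and granulocyte precursors summed to 2748, 3091 and 3322 CPM in CD206- and 119.8, 102 and 40.4 CPM in CD206+ cells, with 9 of 10 tested called lower in CD206+ cells. Most of each CD206- sum came from 1 gene of granulocyte precursors, Mpo (1495, 1976 and 2281 CPM). Cd34 came next, at 736, 489 and 526 CPM. Kit, a receptor of blood progenitors, had 0 reads in all 3 CD206+ libraries. What part progenitor cells in the CD206- libraries had in the values below was not tested.

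None of the 41 genes passed the test in either direction. The edgeR quasi-likelihood test, with Benjamini-Hochberg adjustment over all 12668 genes tested and a threshold of 0.05, called 0 members higher and 0 lower in CD206+ cells. Over all genes tested, 4.87% were called, 2.97% higher and 1.9% lower. DESeq2 and limma-voom, which called 9.56% and 6.43% of all genes, also called 0 members. At an unadjusted p under 0.05 the count was 2 of 41, Ndc80 and Espl1, beside 17.6% of all genes tested. The median log2 fold change of CD206+ over CD206- was -0.04 for the members and -0.0043 for all genes tested. Estimates ran from -0.71 for Espl1 to 0.43 for Ndc80, 21 lay below 0 and 20 above.

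A missed threshold does not by itself show that levels were alike, so the width of the intervals was read as well. The 95% interval of the log2 fold change lay wholly between -1 and 1 for 39 of 41 members (95.1%), against 42.5% of all genes tested. A difference of 2-fold or more thus lay outside the interval for all members except Espl1 and Cdc25b, the latter the gene with the lowest level. In the other cell cycle lists described below, the share of intervals within 2-fold ran from 38.5% (13 brakes) to 96.7% (30 S phase genes). It was 94.1% for the 17 condensin and cohesin genes, so narrow intervals were not particular to the members. For 14 members the interval lay between -0.5 and 0.5. The median half-width was 0.37 and the widest was 0.70, both on the log2 scale. The median within-group SD was 0.17 log2 units for the members and 0.38 for all genes tested. It was 0.28 for the 7962 genes at or above the level of the lowest member, 12.1 CPM. Neither set was matched to the members in level, and the part of level in SD and interval width was not tested. The replicates are separate litters, and the tests measure the spread between these.

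**Figure D1:**
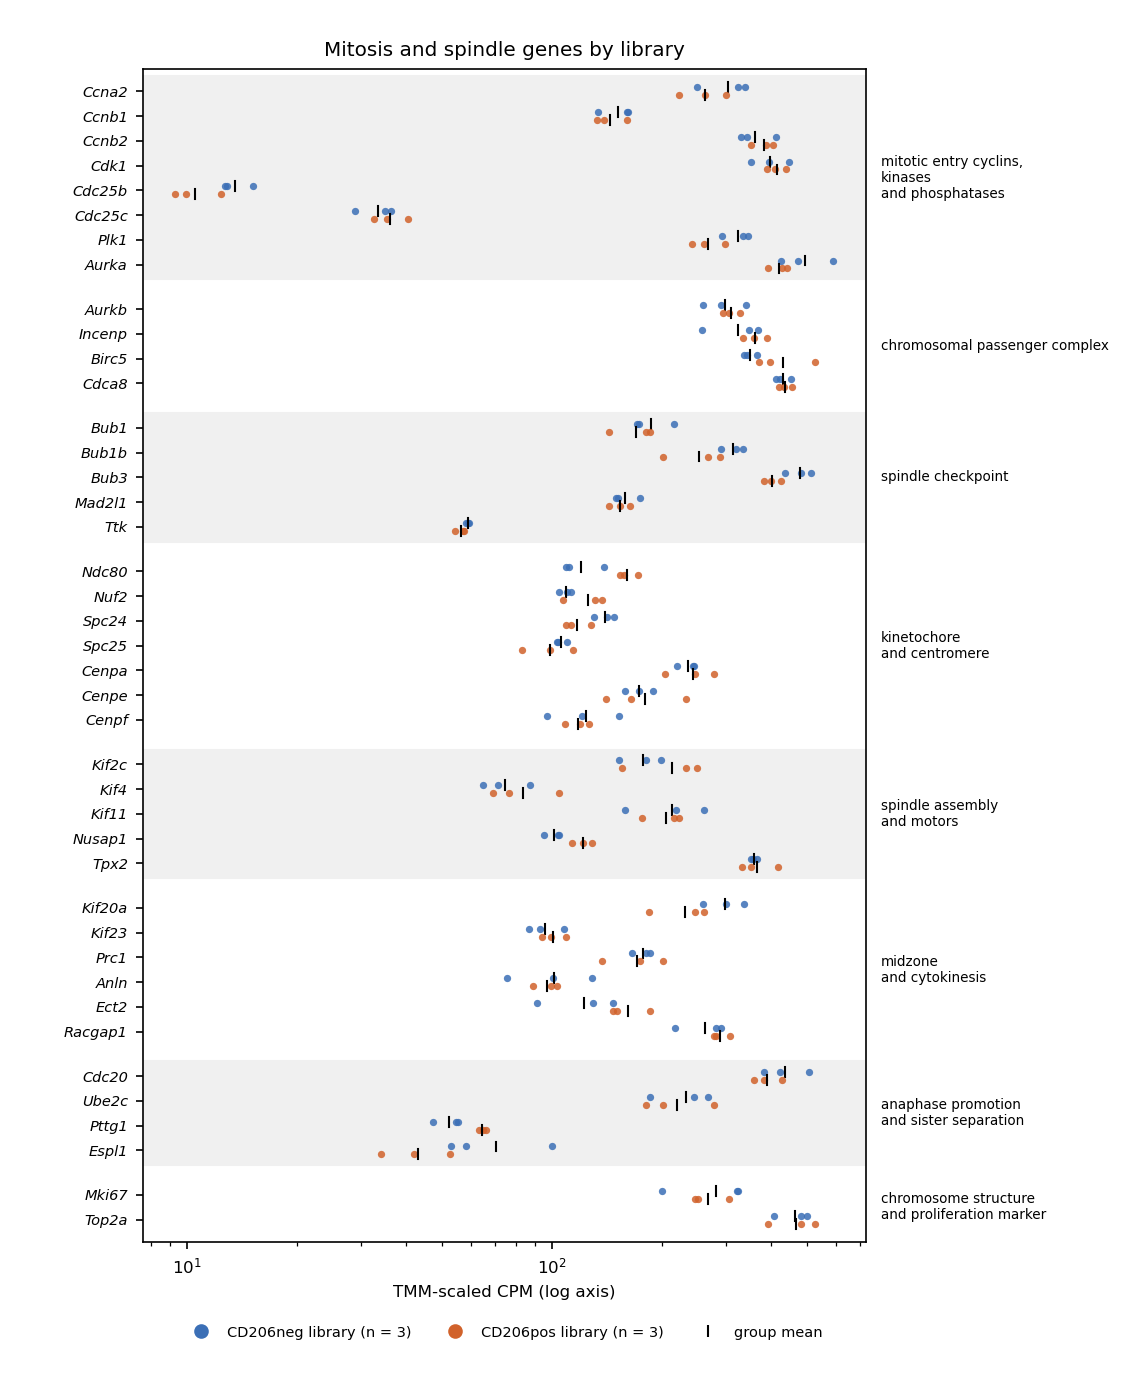
Level of each of the 41 genes in the 6 libraries, as TMM-scaled CPM on a log axis. Points are libraries, 3 CD206neg (CD206-) and 3 CD206pos (CD206+), short black bars are group means, and shaded bands separate the roles. For 31 of the 41 genes the points of the groups overlap.

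**Figure D2:**
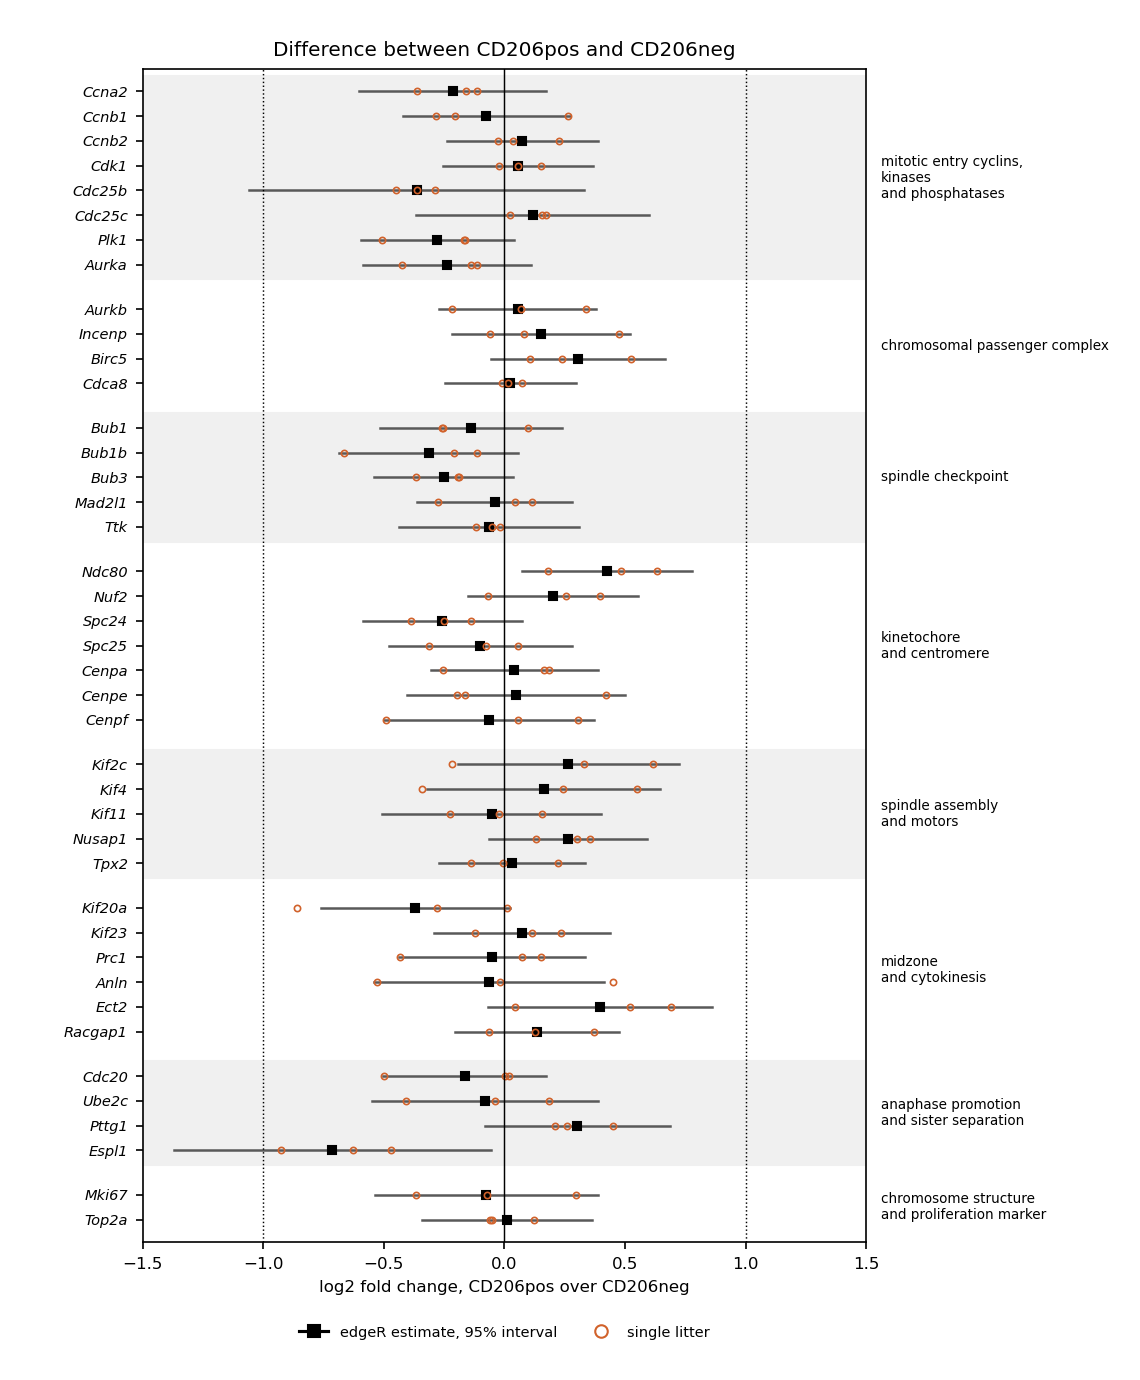
Difference between the groups for each gene, as log2 fold change of CD206pos over CD206neg. Squares with lines are edgeR estimates with 95% intervals, open circles are the differences within single litters, and dotted lines mark 2-fold. Only the intervals of Espl1 and Cdc25b cross a dotted line, and only those of Espl1 and Ndc80 leave out 0.

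In 10 of 41 genes (24.4%) the 3 libraries of one group all lay on one side of the 3 of the other. Over all genes tested this share was 24.6%, of which 12.8% higher and 11.8% lower, so the members' count is that of the background. Lower in CD206+ libraries in this sense were Cdc25b, Bub1b, Bub3, Ttk, Spc24 and Espl1, and higher were Birc5, Ndc80, Nusap1 and Pttg1. Within litters, 18 members were higher and 23 lower in CD206+ cells of litter 1, 24 higher and 17 lower in litter 2, and 17 higher and 24 lower in litter 3. Of the 41 members, 6 were higher in CD206+ cells in all 3 litters and 9 were lower in all 3. The same count was not made over all genes tested, so no result about the members is read from it.

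Summed over the 41 genes, the level was 9405, 9372 and 8860 CPM in the CD206- libraries and 8825, 9396 and 8915 CPM in the CD206+ libraries. The means were 9213 ± 306 and 9045 ± 307 (SD, n = 3), and the groups overlapped. Scaled by total reads instead of TMM, the sums were 9482, 9672 and 9284 against 8505, 9179 and 8600, and the groups no longer overlapped, with all CD206+ libraries lower. By that scaling 30 of 41 estimates lay below 0, and the median of all genes moved as well, to -0.09 on the log2 scale. The split of all called genes was then 273 higher and 284 lower, against 376 and 241 with TMM. In bulk libraries, fewer cells in mitosis and less mitotic RNA per dividing cell cannot be told apart.

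The genes share features of their promoters that the choice by name did not use. The RefSeq promoter table (build GRCm38.p6, 250 bases before to 50 after each transcript start) held a window for 34 of the 41 genes. For 3 members it held 2 windows, and the first listed was used. A RefSeq start can lie away from the annotated gene: the Mad2l1 window ends at 66535270, before the gene's start at 66535390. The 34 windows were searched on both strands for the cell cycle genes homology region (CHR, TTTGAA or TTCGAA), which binds the DREAM and MuvB complexes. They were also searched for CCAAT, the box bound by NF-Y. The letters of one motif do not contain the other, and TTCGAA, which reads the same on both strands, was counted once. CHR letters stood in 27 of 34 windows (79.4%), against 19.4% of all 27025 windows of the same length. CCAAT letters stood in 26 (76.5%, against 37.9%), and 24 windows (70.6%, against 7.7%) held both. The CHR letters lay close to the start: 25 windows (73.5%) had them from 60 bases before to 50 after it, against 5.86% of all windows, and the median position of 36 matches was 1 base before the start. CCAAT matches were spread more widely, with a median of 65 bases before the start and 28 of 57 within 60 bases before it or after it. A CCAAT box stood 20 to 45 bases upstream of a CHR match in 15 of 34 windows (44.1%, against 1.15% of all windows), a distance chosen after the matches were seen. Letters of an E2F site (TTTGGCGC, TTTCCCGC, TTTGCCGC or TTTCGCGC, none of which contains the other motifs) were found in 1 member (2.94%, against 2.32%), while 9 of 23 S phase genes (39.1%) had them. CCAAT stood in 69.6% of the windows of S phase genes and CHR letters in 21.7%. Among 35 further mitotic genes, 68.6% had CHR letters and 65.7% CCAAT, so these features were not confined to the 41 genes. Matches are descriptions of sequence, not of binding.

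The promoters of 4 genes are printed to show these letters, each as the 150 bases before the RefSeq start, 5′ to 3′ on the gene's strand. The CHR and CCAAT letters of either strand are in capitals. Espl1 (chr15:102296143-102296292, plus strand) had the lowest estimate of the 41. Top2a (chr11:99024190-99024339, minus strand) had an estimate near 0. Cdk1 (chr10:69352913-69353062, minus strand, the last 26 bases in the first annotated exon) and Cdc20 (chr4:118437344-118437493, minus strand, the last 9 bases in the first annotated exon) were added after the matches were seen.
Espl1: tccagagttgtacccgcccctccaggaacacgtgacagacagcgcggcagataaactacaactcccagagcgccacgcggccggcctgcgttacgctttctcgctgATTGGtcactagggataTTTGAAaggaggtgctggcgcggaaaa
Top2a: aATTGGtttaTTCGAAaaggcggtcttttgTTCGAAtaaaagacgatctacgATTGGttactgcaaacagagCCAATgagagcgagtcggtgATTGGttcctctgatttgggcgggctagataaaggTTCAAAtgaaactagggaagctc
Cdk1: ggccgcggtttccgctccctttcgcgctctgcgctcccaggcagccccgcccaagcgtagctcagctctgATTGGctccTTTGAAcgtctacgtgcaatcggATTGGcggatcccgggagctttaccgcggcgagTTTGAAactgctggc
Cdc20: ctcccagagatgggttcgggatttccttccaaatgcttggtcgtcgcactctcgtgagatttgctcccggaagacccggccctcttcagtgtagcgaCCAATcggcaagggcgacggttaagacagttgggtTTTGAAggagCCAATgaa
In Espl1 a single CCAAT box, here as its complement ATTGG, stands upstream of a single CHR. Top2a holds 4 CCAAT boxes and 3 CHR matches in the same length, 1 of the latter as its complement TTCAAA. The 27 members with CHR letters had a median log2 fold change of -0.06 (-0.71 to 0.43) and the 7 without (Birc5, Ccnb1, Cenpe, Mad2l1, Nuf2, Nusap1 and Pttg1) a median of 0.20 (-0.08 to 0.31), given with no test.

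**Figure D3:**
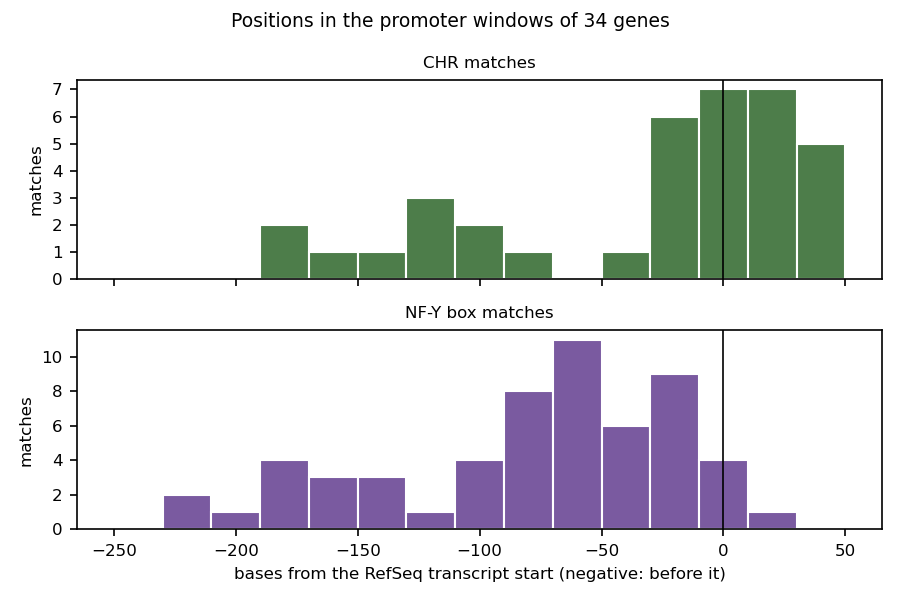
Positions of the CHR matches (upper panel) and NF-Y box (CCAAT) matches (lower panel) in the promoter windows of 34 genes, as number of matches in bins of distance from the RefSeq transcript start. CHR matches gather around the start, with 26 of 36 at or after 60 bases before it, while 28 of 57 NF-Y box matches lie in that zone and the rest further upstream.

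Among the genes of mitotic entry, 0 of 8 passed the test and the median log2 fold change was -0.15. Cdk1, the kinase at the centre of mitotic entry, had 447, 394 and 351 CPM in CD206- and 439.9, 410.0 and 389 CPM in CD206+ libraries. Ccnb1, a cyclin that activates it, had 161, 134 and 161 CPM in CD206- and 133, 161 and 139.5 CPM in CD206+ libraries. The groups of both genes overlapped, with log2 fold changes of 0.06 (SE 0.14) and -0.08 (SE 0.15). Ccnb2, the other mitotic B cyclin, was estimated at 0.07 (361 ± 43.3 against 381 ± 26.5 CPM, SD, n = 3 each). Ccna2, cyclin A, which acts from S phase into early mitosis, was estimated at -0.21 (304 ± 48.3 against 262 ± 38.2 CPM). Its exons overlap those of Exosc9 over 12.5% of their length, where reads were not counted to either gene. Such overlaps covered 15.1% of Kif4, 11.1% of Prc1 and 7.09% of Plk1. The pseudogene copies Ccnb1-ps and Ccnb2-ps took 19 to 37 and 0 to 42 reads a library, and reads fitting both a gene and its copy were not counted.

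Plk1, the Polo-like kinase that acts at centrosomes and kinetochores, had 345, 334 and 294 CPM in CD206- and 243, 298 and 262 CPM in CD206+ libraries. Aurka, the Aurora kinase of spindle poles, had 592, 472 and 424 CPM in CD206- and 441, 429 and 392 CPM in CD206+ libraries. In both genes the ranges of the groups overlapped, with the highest value in the CD206- library of litter 1. The log2 fold changes were -0.28 (SE 0.14, adjusted p = 0.36) for Plk1 and -0.24 (SE 0.15, adjusted p = 0.50) for Aurka. Of the Cdc25 phosphatases, which remove the inhibitory phosphates from Cdk1, Cdc25b was at 15.2, 12.9 and 12.7 CPM in CD206- and 12.4, 9.97 and 9.31 CPM in CD206+ libraries. Its estimate was -0.36 with a 95% interval of -1.06 to 0.33, the widest of the 41. Cdc25c was estimated at 0.12 (33.4 ± 3.85 against 36.2 ± 3.92 CPM).

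The chromosomal passenger complex, which corrects faulty attachments and later directs cytokinesis, had 4 members and 0 calls, with all 4 estimates above 0 and a median of 0.10, although Aurkb (-0.03) and Cdca8 (-0.06) lay below 0 when scaled by library totals and Cdca8 also with upper-quartile scaling. Aurkb, its kinase, had 342, 292 and 260.3 CPM in CD206- and 294, 306 and 329 CPM in CD206+ libraries. Birc5 (survivin), the subunit that brings the complex to centromeres, had 366, 343 and 336 CPM in CD206- and 526, 369 and 397 CPM in CD206+ libraries. The Birc5 groups did not overlap, and the litter 1 library stood above the other CD206+ ones. Its log2 fold change was 0.31 (SE 0.16, 95% interval -0.05 to 0.67, adjusted p = 0.38). Incenp, the scaffold, was estimated at 0.15 (324 ± 58.3 against 359.9 ± 27.1 CPM), and Cdca8 (borealin) at 0.02 (429 ± 20.7 against 436 ± 19.0 CPM). The Cdca8 interval was among the narrowest, from 0.843-fold to 1.23-fold.

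All 5 spindle checkpoint genes had estimates below 0, also under the 3 other scalings tried, with a median of -0.14 and 0 calls. Bub3, which docks checkpoint proteins at the kinetochore, had 514, 436 and 483 CPM in CD206- and 398, 381 and 424 CPM in CD206+ libraries. Bub1b (BubR1), part of the complex that inhibits the anaphase-promoting complex, had 319, 335 and 291 CPM in CD206- and 201, 289 and 269 CPM in CD206+ libraries. In both, every CD206+ library lay below every CD206- library, in each by a margin smaller than the SD within either group. The log2 fold changes were -0.25 (SE 0.13, adjusted p = 0.36) and -0.31 (SE 0.16, adjusted p = 0.38). Ttk (Mps1), the kinase that starts checkpoint signalling, was estimated at -0.06 (58.9 ± 0.508 against 56.4 ± 1.80 CPM). Bub1, a checkpoint kinase that binds Bub3, was estimated at -0.14 (187 ± 25.5 against 170.3 ± 23.1 CPM) and Mad2l1 (Mad2), which binds Cdc20, at -0.04 (159 ± 13.7 against 154 ± 10.1 CPM). Summed over the 5 genes, the level was 1217, 1196 and 1179 CPM in CD206- and 1007, 1060 and 1038 CPM in CD206+ libraries. These sums did not overlap, while the sums of every other role overlapped between the groups. Among all single genes tested, 24.6% did not overlap, and the share among sums of other gene sets was not counted. No test was made on the checkpoint sums because the list was drawn up with earlier results known.

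Within the kinetochore and centromere, 0 of 7 genes passed the test and the median was 0.04. Ndc80 (Hec1; ENSMUSG00000024056.9, chromosome 17, 71496100 to 71526857, minus strand), the subunit that binds microtubules, had 139, 111 and 109.8 CPM in CD206- and 158, 172 and 154 CPM in CD206+ libraries. Every CD206+ library was above every CD206- library, with a mean difference of 1.34-fold. Its log2 fold change of 0.43 (SE 0.15, 95% interval 0.07 to 0.78) had an unadjusted p of 0.023 and an adjusted p of 0.19. Its dimer partner Nuf2 was estimated at 0.20 (109 ± 4.29 against 126 ± 15.9 CPM). In the other dimer of the same 4-protein complex, Spc24 had 142, 130.4 and 148 CPM in CD206- and 129, 109.7 and 113 CPM in CD206+ libraries, and Spc25 was estimated at -0.10 (106 ± 3.75 against 98.9 ± 15.7 CPM). The Spc24 estimate was -0.26 (SE 0.15, adjusted p = 0.43). Per length, the ratio of Ndc80 to Spc24 was 1.15, 0.997 and 0.868 in CD206- and 1.44, 1.84 and 1.59 in CD206+ libraries. That of Nuf2 to Spc25 overlapped, at 0.532, 0.508 and 0.515 in CD206- and 0.668, 0.832 and 0.472 in CD206+ libraries.

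Cenpa, the histone H3 variant that marks centromeres, was estimated at 0.04 (236 ± 14.1 against 243 ± 37.6 CPM). Cenpe, a kinetochore motor that moves chromosomes to the spindle equator, was estimated at 0.05 (174 ± 15.7 against 179.8 ± 47.4 CPM). Cenpf, a large protein of the outer kinetochore, was estimated at -0.07 (124 ± 28.2 against 118 ± 8.63 CPM). All 3 overlapped between the groups, and each interval lay within 2-fold.

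Spindle assembly and motor genes gave 0 calls of 5 and a median of 0.16. Kif11 (Eg5), the motor that pushes the spindle poles apart, was estimated at -0.05 (213 ± 51.6 against 206 ± 25.0 CPM). Tpx2, which activates Aurora A on spindle microtubules, was estimated at 0.03 (358 ± 6.49 against 366 ± 44.2 CPM). Kif2c (MCAK), which takes apart microtubule ends, had 181, 153 and 199 CPM in CD206- and 156, 234 and 249.7 CPM in CD206+ libraries, an estimate of 0.26 (SE 0.20). Its litter 1 library was the lowest of the CD206+ group and fell among the CD206- values. Nusap1, a microtubule bundling protein, had 95.3, 104 and 105 CPM in CD206- and 122, 114 and 129 CPM in CD206+ libraries, which did not overlap. Its estimate was 0.26 (SE 0.14, adjusted p = 0.41). Kif4, a motor of chromosome arms and the spindle midzone, was estimated at 0.16 (74.5 ± 11.7 against 83.4 ± 18.8 CPM).

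For the midzone and cytokinesis the median was 0.01, with 0 of 6 calls and the largest estimates on both sides of 0. Kif20a (MKLP2), the motor that carries the passenger complex to the midzone, had 336, 300.5 and 259.8 CPM in CD206- and 185, 247 and 262 CPM in CD206+ libraries. Its estimate was -0.37 (SE 0.17, adjusted p = 0.32), and 33.2% of its exon length overlaps the exons of Cdc23 on the other strand, so its counts cover only part of the transcript. Ect2, the exchange factor that switches on RhoA at the cleavage furrow, had 91.1, 147 and 129.9 CPM in CD206- and 147, 151 and 186 CPM in CD206+ libraries. Its estimate was 0.40 (SE 0.20, adjusted p = 0.37), and the groups met at 147 CPM. Kif23 and Racgap1, which together form centralspindlin, were estimated at 0.07 (95.8 ± 11.1 against 101 ± 7.77 CPM) and 0.13 (264 ± 39.9 against 289.6 ± 15.7 CPM). Prc1, which bundles midzone microtubules, had 185, 182 and 166 CPM in CD206- and 137, 202 and 175 CPM in CD206+ libraries, an estimate of -0.05. Anln (anillin), the scaffold of the contractile ring, was estimated at -0.06 (102 ± 26.5 against 97.3 ± 7.42 CPM).

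Of the 4 genes of anaphase onset, 0 passed the test and the median was -0.12. Cdc20, the activator of the anaphase-promoting complex, had 506, 423 and 381 CPM in CD206- and 358, 428 and 381 CPM in CD206+ libraries, an estimate of -0.17 (SE 0.15). Ube2c, the ubiquitin-conjugating enzyme of that complex, was estimated at -0.08 (233 ± 42.3 against 220.4 ± 51.5 CPM), and 22.8% of its exon length overlaps another gene. Espl1 (separase; ENSMUSG00000058290.3, chromosome 15, 102296293 to 102324356, plus strand), the protease that cuts cohesin, had 52.9, 100.3 and 58.1 CPM in CD206- and 34.2, 52.8 and 41.9 CPM in CD206+ libraries. The groups did not overlap, with the nearest libraries at 52.9 and 52.8 CPM, and the litter 2 library of the CD206- group stood well above all others. The log2 fold change was -0.71 (SE 0.29, 95% interval -1.37 to -0.06), with an unadjusted p of 0.036 and an adjusted p of 0.24. Without that library the estimate was -0.37 and the adjusted p 0.62. Pttg1 (securin), which holds separase inactive, had 55.3, 47.4 and 54.5 CPM in CD206- and 66.1, 64.7 and 63.1 CPM in CD206+ libraries. All CD206+ values lay higher, with an estimate of 0.30 (SE 0.17, adjusted p = 0.42). The ratio of Espl1 to Pttg1 per length was 0.289, 0.638 and 0.322 in CD206- and 0.156, 0.246 and 0.201 in CD206+ libraries.

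The pair most often used to mark dividing cells did not separate the groups. Mki67 (Ki-67; ENSMUSG00000031004.8, chromosome 7, 135689784 to 135716361, minus strand), which coats mitotic chromosomes, had 201, 323 and 324 CPM in CD206- and 247, 307 and 251 CPM in CD206+ libraries. Top2a (ENSMUSG00000020914.17, chromosome 11, 98992943 to 99024189, minus strand), the topoisomerase that untangles sister DNA, had 406, 483 and 502 CPM in CD206- and 392, 526 and 482 CPM in CD206+ libraries. Both ranges overlapped almost fully. The 95% intervals of CD206+ over CD206- ran from 0.689-fold to 1.31-fold for Mki67 and from 0.789-fold to 1.28-fold for Top2a.

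Comparing levels between genes requires the exon length, so CPM per kb of exon was used. The order of the 41 genes was nearly the same in both groups (Spearman 0.993 and, on log2 values, Pearson 0.987 over the 41 genes, which share libraries and are no replicates). Both groups were divided by the same exon lengths. The correlations over all genes tested were not computed, so this likeness is not read as particular to the members. In both groups the highest level per length was that of Ccnb2 (236 in CD206- and 249 in CD206+ cells), followed by Cdc20 (234 and 208) and Aurka (196 and 166). Plk1 (148 and 122) came next in CD206- and Birc5 (102 and 127) in CD206+ cells. At the other end stood Cdc25b (3.65 and 2.83), Cenpf (8.02 and 7.67) and Espl1 (10.6 and 6.48). Among all genes tested, 16 members were at or above the 90th percentile of level per length, and the lowest, Cdc25b, was at percentile 40.2. Top2a (51.4 and 51.8 CPM per kb) lay above Mki67 (28.1 and 26.7) in both groups.

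**Figure D4:**
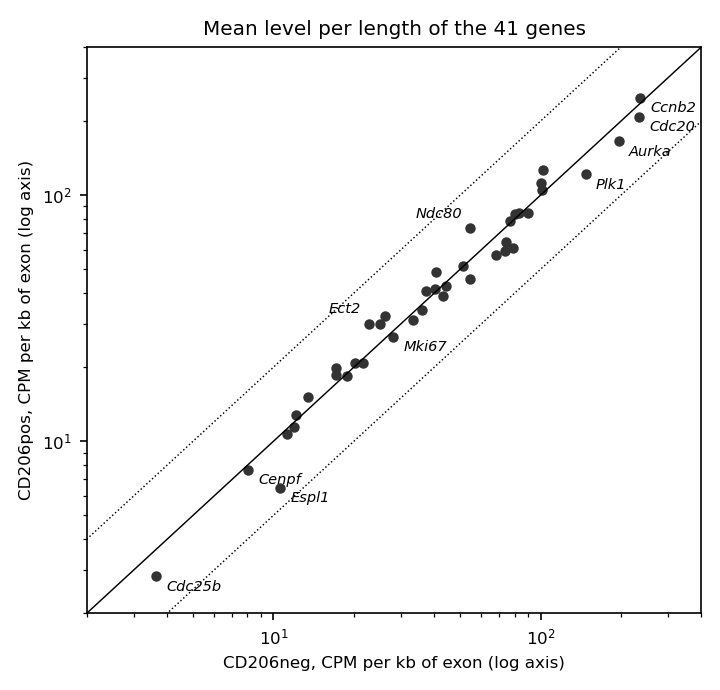
Mean level of each of the 41 genes per kb of exon in CD206neg (x axis) and CD206pos (y axis) libraries, both on log axes. The solid line marks equal levels and the dotted lines 2-fold, and all points lie between the dotted lines.

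Ratios between 2 genes do not depend on how libraries are scaled. Of 19 pairs of genes that share a complex, a family or a step of mitosis, chosen after the values were seen, 6 had ratios that did not overlap between the groups, against 20.6% of all 820 pairs of members. Besides the ratios given above, these were Aurka to Aurkb (2.02, 1.88 and 1.90 against 1.74, 1.63 and 1.39), Ccna2 to Cdk1 (0.877, 1.04 and 0.860 against 0.824, 0.777 and 0.694) and Birc5 to Cdca8 (1.23, 1.27 and 1.21 against 1.75, 1.30 and 1.44). The sixth was Cdc25b to Cdc25c, at 0.218, 0.192 and 0.229 against 0.160, 0.147 and 0.148. All values are per length, with CD206- libraries first, and no test was made.

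Other genes of the cell cycle were counted by the same test. None of 42 further mitotic genes, 17 condensin and cohesin genes, 17 genes of the constitutive centromere and Mis12 complexes, 17 genes of the anaphase-promoting complex and 12 centrosome and tubulin genes was called by edgeR, DESeq2 or limma-voom. At an unadjusted p under 0.05, edgeR counted 2, 1, 0, 1 and 0 genes in these lists, beside 17.6% of all genes tested. Their median log2 fold changes were -0.13, -0.11, -0.01, 0.03 and -0.02. Of 16 regulators of G2 and M phase transcription 0 were called by edgeR (3 at an unadjusted p under 0.05), while DESeq2 and limma-voom each called Tfdp1, the E2F dimer partner, lower in CD206+ cells. Foxm1, the forkhead activator of mitotic genes, was at 40.3 ± 9.7 CPM in CD206- and 43.2 ± 6.95 CPM in CD206+ libraries (log2 fold change 0.10, adjusted p = 0.90). Mybl2 (B-Myb), which joins MuvB on CHR promoters, was at 35.5 ± 9.42 and 24.8 ± 8.85 CPM (-0.52, adjusted p = 0.50). Of 13 genes that brake the cell cycle 0 were called by edgeR, with a median of 0.33 and 3 at an unadjusted p under 0.05, and DESeq2 and limma-voom each called Btg2, an antiproliferative gene, higher in CD206+ cells.

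S phase genes gave 1 call of 30, beside 4.87% of all genes tested. At an unadjusted p under 0.05 there were 6 of 30, beside 17.6% of all genes tested, and all 6 were lower in CD206+ cells. The median log2 fold change of the 30 genes was -0.08, with 20 estimates below 0 and 10 above. Cdc45, a part of the helicase that opens replication forks, had 166, 162 and 155 CPM in CD206- and 112, 100.4 and 80.7 CPM in CD206+ libraries. It was lower in CD206+ cells, with a log2 fold change of -0.72 (SE 0.16, adjusted p = 0.044), also by DESeq2 and limma-voom, but the edgeR call was lost when any 1 library other than that of CD206+ litter 1, or any 1 litter, was left out (adjusted p 0.087 to 0.34). Summed over the 30 genes, the level was 10655, 9759 and 9358 CPM in CD206- and 9044, 9038 and 8900 CPM in CD206+ libraries, and the groups did not overlap. Genes with high counts weigh most in such a sum. Group means in CD206- and CD206+ libraries were 1185 and 1104 CPM for Mcm6 and 1047.5 and 863 CPM for Mcm3. They were 968 and 769 CPM for Mcm5, and 822 and 860 CPM for Rrm1, which was higher in CD206+ cells. The ratio of the summed mitosis and spindle genes to the summed S phase genes was 0.883, 0.960 and 0.947 in CD206- and 0.976, 1.04 and 1.00 in CD206+ libraries. This ratio, which no scaling of libraries changes, was thus higher in all 3 CD206+ libraries, with means of 0.930 ± 0.0414 and 1.01 ± 0.0321 (SD, n = 3). An exact permutation test on 3 against 3 libraries cannot fall below 0.10, and none was made on this ratio. The summed progenitor markers given above were also higher in the CD206- group, and the part of progenitor cells in the S phase sums was not tested.

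**Figure D5:**
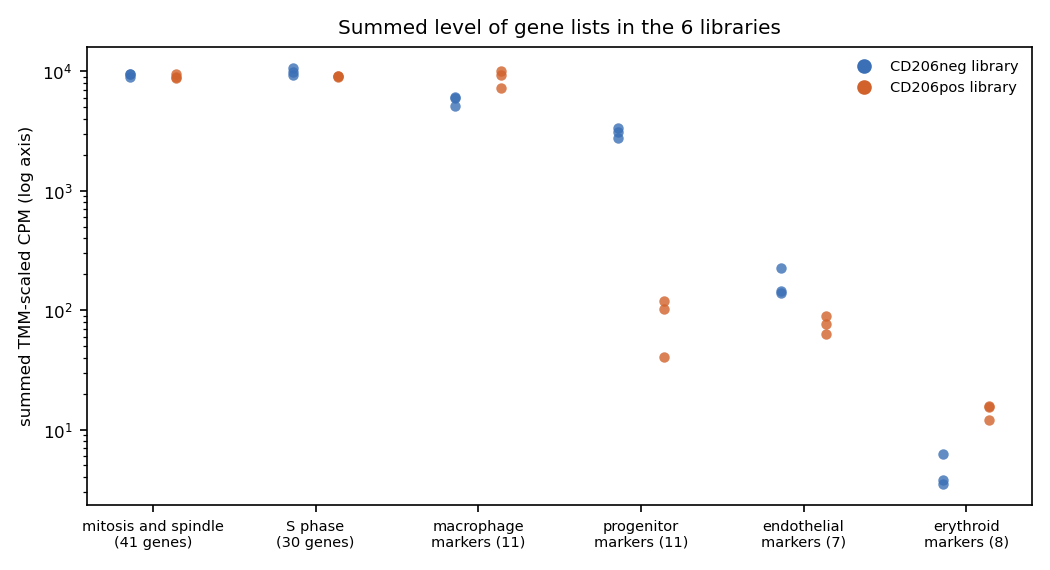
Summed level of the 41 mitosis and spindle genes, of 30 S phase genes and of marker lists in the 6 libraries, as TMM-scaled CPM on a log axis. Points are libraries, CD206neg on the left and CD206pos on the right of each pair; the mitosis and spindle sums lie between 8825 and 9405 CPM in all 6, while the progenitor marker sums are 2748 to 3322 CPM in CD206neg and 40.4 to 119.8 CPM in CD206pos libraries.

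Markers of other cells that a GFP gate could let through were counted as well. Of 7 endothelial markers 0 were called by edgeR, with sums of 226, 139.9 and 145 CPM in CD206- and 76.5, 63.2 and 89.3 CPM in CD206+ libraries, 3 at an unadjusted p under 0.05, and 3 called lower by DESeq2 and 1 by limma-voom. Erythroid markers summed to 3.49, 3.76 and 6.26 CPM in CD206- and 12.0, 15.6 and 15.4 CPM in CD206+ libraries, with 0 of 4 tested called by edgeR and 2 at an unadjusted p under 0.05. Most of the CD206+ sum was Epor, the erythropoietin receptor (9.60, 11.7 and 10.8 CPM), which DESeq2 and limma-voom called higher. Klf1, a red cell transcription factor, was lower in all CD206+ libraries (0, 0 and 0.231 CPM against 2.02, 1.62 and 1.52 CPM). Megakaryocyte markers summed to 65.6, 51.3 and 47.8 CPM in CD206- and 1.28, 9.97 and 9.72 CPM in CD206+ libraries, with 1 of 4 tested called lower. Of 6 mesenchymal and 2 epithelial markers tested 0 were called by edgeR, 0 and 1 at an unadjusted p under 0.05, and DESeq2 alone called 1, Krt18, lower. The mesenchymal sums were highest in litter 3, at 79.6 CPM in the CD206- and 62.5 CPM in the CD206+ library, against 1.83 to 11.8 CPM in the other 4. What part any of these cells had in the levels of the mitosis and spindle genes was not tested.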

How the data were processed

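The authors deposited raw read counts per gene, made with featureCounts 1.5.2 on the GENCODE M14 annotation, per the file headers. The submitters' processing notes also name STAR 2.3 and the builds mm10 and GRCm38.p5. Strand was not set in the counting, so reads from antisense genes cannot be told apart, and reads on overlapping genes or in several places were not counted. The test was that of edgeR 4.0.16 (R 4.3.3; filterByExpr, TMM, robust quasi-likelihood F test, no litter block, Benjamini-Hochberg over 12668 genes, threshold 0.05). Alternatives were DESeq2 1.42.0, limma-voom (limma 3.58.1), other scalings and filters, a litter block, and leaving out each library or litter. The interval of a log2 fold change comes from its SE, taken as its size over the square root of F. Litter differences used log2 CPM with a prior count of 2. The fit was tested on simulated data for this comparison (12084 genes): it recovered 34% of 100 genes changed by 1 log2 unit and 71% of 100 changed by 2, with 4 false calls.

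The replicate number in the titles was read as the litter, since the series design names 3 independent litters. Deviations from the group means correlated between same-numbered libraries at 0.089, 0.039 and 0.18 over all genes tested, and at 0.24, 0.098 and 0.17 over the members. The counts carry no molecular identifiers, so reads may repeat molecules and floors cover counting error only. Symbols matched 51633 of 51912 identifiers. All members were named by role, Foxm1, Mybl2 and Mrc1 always, and from other lists called genes with the smallest p. Genes named for a low unadjusted p, for a call by another tool or in partner ratios were picked after their values were seen. The members and gene lists were chosen with earlier results of these data known. Promoters of Ndc80 and Cdca8, which the rule also picked, were not printed, because 112 and 109 of their 150 bases are annotated exon.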

Additional observations from a re-analysis of the deposited data

How the results depend on the processing

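No member was called under any of 18 alternatives, and 62 of 738 member estimates changed sign, all of size 0.17 or less in the reported fit. The members' median of -0.04 became -0.13 with library totals, and -0.071 with upper-quartile scaling. In the fit without a filter on low counts, where the median of the same 41 genes was also -0.04, these scalings gave -0.13 and -0.091. The log2 ratio of their summed CPM was -0.03 and became -0.11 with library totals. Leaving out 1 library gave medians from -0.063 to 0.032, the highest without the CD206- library of litter 2, and leaving out 1 litter gave -0.070 to 0.027. With the replicate block for litter, 703 genes and 0 members were called, and the adjusted p became 0.086 for Espl1 and 0.15 for Ndc80. The 617 calls over all genes became 1210 with DESeq2, 190 to 561 without 1 library and 307, 3 and 153 without litters 1, 2 and 3. Over the alternatives, Ndc80 ran from 0.29 to 0.56 (adjusted p 0.080 to 0.77) and Espl1 from -0.91 to -0.37 (0.086 to 0.62). The cause of these shifts was not tested. In the simulation, 34% of 2-fold changes were recovered, in genes drawn at random from all but the lowest levels. This limits what counts of calls can show, and the share was not measured for the members alone.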
